A study of Mus musculus with 8 samples.

Results

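After irradiation, labelled cells outside the Paneth cell gate were compared with labelled cells inside it, across all measured genes. The mice carried Lyz1CreER and R26R-tdT, were 8 to 14 weeks old on a mixed C57/BL6;129 background, and had each received 1 dose of tamoxifen (10 mg). Tamoxifen lets a Cre recombinase driven by Lyz1 switch on tdTomato in cells that are then using this lysozyme gene, and every later descendant stays red. Viable intestinal epithelial cells (DAPI-, CD45-, EpCAM+) that were tdTomato+ were sorted 5 days after radiation into CD24- cells (3 libraries, called derivatives in the labels) and CD24+ cells (3 libraries, the Paneth gate). These 6 of the 8 libraries in the series make up the comparison. The other 2 are tdTomato+ CD24+ cells of non-irradiated mice. They entered the estimate of spread, the filter for tested genes and the reference used in scaling, but not the means compared. Both groups compared shared genotype, tamoxifen and irradiation, and CD24 is the labelled difference between them. No CD24- libraries without irradiation entered the work, so what irradiation adds to the derivative profile cannot be told apart from what CD24- cells carry without it. The labels name no radiation dose and do not say that replicates came from separate animals, so a p-value here reflects the spread between libraries, which may be technical. Of 24013 gene symbols, 11190 had an FPKM (fragments mapped to a gene, divided by its transcript length and by the library's total) of at least 1 in at least 2 of the 8 libraries and were tested.

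Paneth cells are long-lived secretory cells at the base of the small intestinal crypt. They store antimicrobial peptides in granules and feed the neighbouring Lgr5+ crypt base columnar stem cells with Wnt, EGF and Notch ligands. Absorptive enterocytes arise from progenitors in which Notch signalling is on, carry a brush border of hydrolases and transporters, take up fat and package it into chylomicrons, and change their gene use as they migrate from crypt to villus tip. Goblet, enteroendocrine and tuft cells are the other secretory or sensory lineages, and the transcription factor Atoh1 is needed for goblet, enteroendocrine and Paneth fates.

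Genes that differed strongly include the alpha-defensins Defa21 and Defa23, Paneth granule peptides that were lower in CD24- cells, and the enterocyte genes Fabp1 (fatty acid binding in the cytosol) and Sis (sucrase-isomaltase of the brush border), which were higher. These 4 genes are examples and were not picked by rank of change, so a match in each does not show how common matches are. The bases before their start sites are shown with a search for motifs of known regulators. TCF/LEF proteins carry Wnt signals, and HNF1 and HNF4 proteins act in enterocytes. The part of these regulators in the differences was not tested. The sequences are from RefSeq (GRCm38.p6), 5' to 3' on the gene's strand, 250 bases each, with matches in capitals.
Defa21, chr8:21025295-21025544, plus strand: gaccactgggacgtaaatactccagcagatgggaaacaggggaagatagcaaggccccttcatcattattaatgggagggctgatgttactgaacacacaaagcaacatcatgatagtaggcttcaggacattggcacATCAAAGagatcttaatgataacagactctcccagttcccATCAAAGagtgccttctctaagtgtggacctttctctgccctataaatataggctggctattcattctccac
Defa23, chr8:21054790-21055039, plus strand: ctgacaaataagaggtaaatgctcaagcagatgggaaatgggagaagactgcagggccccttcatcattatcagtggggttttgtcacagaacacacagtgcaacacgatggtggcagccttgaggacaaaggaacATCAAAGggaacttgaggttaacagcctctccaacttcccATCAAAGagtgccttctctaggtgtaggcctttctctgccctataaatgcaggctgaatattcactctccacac
Fabp1, chr6:71199629-71199878, plus strand: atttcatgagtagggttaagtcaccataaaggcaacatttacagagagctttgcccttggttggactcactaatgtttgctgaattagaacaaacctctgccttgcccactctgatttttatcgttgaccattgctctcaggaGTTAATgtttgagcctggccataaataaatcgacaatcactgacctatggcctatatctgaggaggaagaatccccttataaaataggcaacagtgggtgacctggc
Sis, chr3:72967864-72968113, minus strand: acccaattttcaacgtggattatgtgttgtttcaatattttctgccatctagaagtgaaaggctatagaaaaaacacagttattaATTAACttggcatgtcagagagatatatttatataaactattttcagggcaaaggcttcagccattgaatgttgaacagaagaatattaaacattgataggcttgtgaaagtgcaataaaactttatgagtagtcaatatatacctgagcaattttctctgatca
Capitals mark a TCF/LEF match (CTTTGAT or its reverse complement ATCAAAG) in both defensin sequences, beginning 112 and 72 bases before the start site of Defa21 and 114 and 74 bases before that of Defa23. In the Fabp1 and Sis sequences they mark an HNF1 core motif (GTTAAT or its reverse complement ATTAAC), 107 and 165 bases before the start site. The other motif searched for, the HNF4 repeat CAAAGTCCA (reverse complement TGGACTTTG), is in none of the 4. All 3 were searched on both strands from 250 bases before to 50 after a start site, and a TCF/LEF and an HNF4 match can share bases. The TCF/LEF letters were in the window of 6 of the 15 Paneth product genes that have a listed promoter (40%, of 40 listed) and of 3% of tested genes with a promoter (8428 genes). The printed defensin sequences resemble each other closely, so matches in such genes are not independent. How many of the 6 are near copies was not tested. The HNF1 letters were in 8 of 32 nutrient transporter promoters (25%) and 4 of 20 fat absorption promoters (20%), against 5.59% of tested genes. The motifs did not divide by list, since 3 of the 15 Paneth promoters (20%) held the HNF1 letters and 3 of 18 brush border promoters (16.7%) held the TCF/LEF letters, as many as held the HNF1 letters. The HNF4 letters were in 2 of 18 brush border promoters (11.1%) and 0 of 20 fat absorption promoters. Among genes called the same way as deposited and after median-of-ratios scaling (below), HNF1 letters were in 6.34% of those higher and 8.39% of those lower. For TCF/LEF these shares were 2.99% and 4.55%, and for HNF4 1.22% and 0.699%. Across all 27018 genes with a promoter in the RefSeq table the shares were 4.29% for TCF/LEF, 8.25% for HNF1 and 0.555% for HNF4. These are counts of letters and say nothing of binding.

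Per-library values are given in the order of replicates 1, 2 and 3, and a log2 fold change is the CD24- mean minus the CD24+ mean of log2(FPKM + 1), with its standard error from limma. The sort genes and Lyz1, the gene that drives the label, were read first. Cd24a stood at 117, 77.7 and 37.4 FPKM in CD24- libraries and 674, 749.7 and 670.3 in CD24+ libraries, without overlap. Lyz1, a Paneth product, stood at 2576, 814 and 384 against 36444, 33765 and 31456 FPKM, also without overlap. Epcam, an adhesion protein used as the epithelial gate, stood at 736, 676 and 596 against 258, 278 and 238 FPKM. Ptprc, which encodes CD45, was at most 0.198 FPKM in any of the 6. Of 34 leukocyte markers in the table, 26 were below 1 FPKM in all 6 libraries and Cd79a, Emr1, S100a8 and S100a9 were listed at 0. Without Lyz2, a near copy of Lyz1, the leukocyte markers summed to 15.7 to 36.3 FPKM in CD24- and 37.1 to 41.0 in CD24+ libraries. Of 27 stromal and endothelial markers, 23 were below 1 FPKM in all 6 and Col1a2, Lum, Acta2, Cdh5, Kdr and Sox10 were listed at 0. Their sum was 9.75, 16.7 and 51.4 FPKM in CD24- replicates and 3.85, 8.57 and 13.0 in CD24+ replicates, most of it Vim. Vim was not called as deposited but was called higher with replicate number as a block (limma adjusted p = 0.000944). Of the 7 leukocyte markers that passed the filter 1 was called higher (Itgam, 1.23 ± 0.17) and 3 lower (Lyz2, Lcp1 and Kit), while 3 were higher with the block or without CD24- replicate 3 and 4 with TPM. Of the 3 stromal and endothelial markers that passed it 2 were higher (Lyve1 and Tagln), and 3 with the block or with TPM. The part of these markers in the results was not tested.

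The make-up of the libraries differed sharply. The 40 listed Paneth cell products, mostly alpha-defensins, held 67.2%, 65.5% and 63.6% of all FPKM in CD24+ libraries and 11.1%, 3.03% and 1.65% in CD24- libraries. The groups do not overlap, and CD24- replicate 1 held the most Paneth transcript of its group. Just 8, 8 and 7 genes made up 50% of the FPKM of a CD24+ library, against 195, 203 and 252 genes of a CD24- library. Outside the Paneth products, the 100 most abundant remaining genes held 70.2%, 64.9% and 66.6% of what was left in CD24+ cells and 35.4%, 38.8% and 36.5% in CD24- cells. For each of these measures an exact permutation test (two-sided, 3 against 3) gave p = 0.10, the smallest this design allows. In sorted bulk samples a lower level can mean fewer cells of a type or less RNA per cell, and these cannot be told apart.

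**Figure D1:**
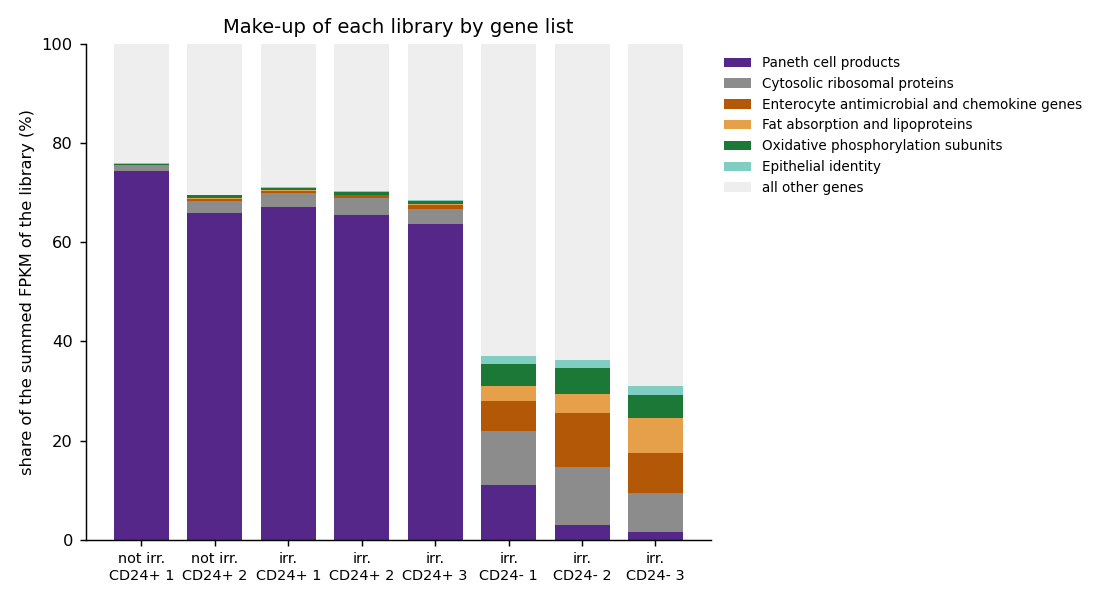
Share of the summed FPKM (%, stacked) held by 6 gene lists and by all other genes in each of the 8 libraries, in 3 groups (2 CD24+ libraries without irradiation, 3 CD24+ and 3 CD24- libraries with it). Paneth cell products fill 63.6% to 67.2% of irradiated CD24+ libraries and 1.65% to 11.1% of CD24- libraries.

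Across all genes, 5439 were called higher in CD24- cells (48.6% of those tested) and 813 lower (7.27%), by limma with Benjamini-Hochberg adjustment (threshold 0.05), which makes 55.9% called in either direction. The median gene was higher by 0.51 on the log2 scale, and each CD24- library taken alone was above the CD24+ mean by a median of 0.60, 0.51 and 0.46. Because a few Paneth genes take most of the FPKM in CD24+ cells, all comparisons were repeated after median-of-ratios scaling, which sets the median gene of each library level with a common reference and is meant wherever a value is called scaled. The median difference then became 0.04 (0.0376). After scaling 3625 genes (32.4%) were called higher and 2726 (24.4%) lower, 56.8% in all. All 3625 of these higher calls were also made on the deposited values, and so were 809 of the lower ones (7.23% of genes tested), so 39.6% of genes were called the same way by both. No gene was called in opposite directions. On the deposited values the groups did not overlap for 6609 genes that lay higher (59.1%) and 1042 that lay lower (9.31%), together 68.4%. The share of calls that were higher was 87% as deposited, 57.1% scaled, 45.1% after quantile normalization and 97.5% when each library was rescaled to the same total (TPM), under which the median gene was higher by 1.60. Direction counts for mild changes therefore depend on the scaling, whereas 480 genes were higher and 102 lower by at least 4-fold on both the deposited and the scaled values. Of the calls, 2637 higher and 255 lower ones held under all 5 scalings tried. Lists below are counted against the 48.6% and 7.27% of all genes (32.4% and 24.4% scaled) and against the median gene. With TPM 10000 of all genes tested were called higher and 260 lower. A turn of a list toward higher calls with TPM is therefore shared with genes in general.

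**Figure D2:**
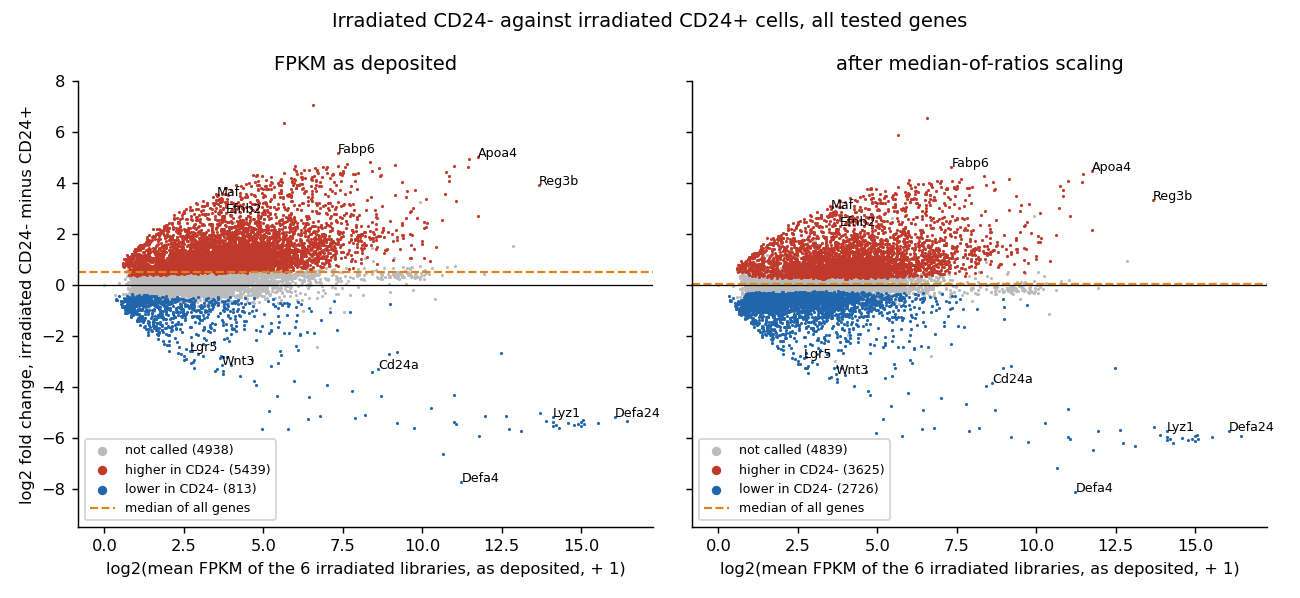
Log2 fold change (CD24- minus CD24+, y axis) against log2 of the mean FPKM of the 6 irradiated libraries plus 1 (x axis) for 11190 genes, as deposited (left) and after median-of-ratios scaling (right). Red and blue points are genes called higher and lower by limma, and the dashed median of all genes lies at 0.51 on the left and 0.0376 on the right.

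The lower side was led by Paneth cell products. Of 40 tested members 39 were called lower (38 scaled), at a median log2 fold change of -5.33 (-5.90 scaled). Defa4 had the largest difference, as deposited, of all genes at a mean of 5 FPKM or more. It stood at 294, 0.107 and 31.9 FPKM in CD24- and 5043, 5182 and 3869 in CD24+ libraries (log2 fold change -7.72 ± 1.44, -8.15 scaled), and the CD24- values spanned from near 0 to 294 FPKM. Defa23, whose upstream sequence is printed above, stood at 3494, 1164 and 595 FPKM in CD24- and 59844, 59601 and 71084 in CD24+ libraries (log2 fold change -5.56 ± 0.70, -6.13 scaled). Reads of near-identical defensins may have been divided among copies, so single defensin values are uncertain. Defa20, the member not called, stood at 1.02, 0.00855 and 0.00255 against 0.294, 12.2 and 0.327 FPKM. Outside the granule products, Tmed6, a cargo receptor of the early secretory pathway, was lower and stood at 10.3, 7.47 and 5.5 FPKM in CD24- and 105, 134 and 107 in CD24+ libraries (log2 fold change -3.76 ± 0.25, -4.26 scaled). Slc1a4, a neutral amino acid transporter, was lower and stood at 3.69, 1.53 and 1.31 FPKM in CD24- and 33.1, 36.5 and 34.4 in CD24+ libraries (log2 fold change -3.56 ± 0.25, -3.95 scaled). In both, every CD24- value was below every CD24+ value, which their choice by a small adjusted p made likely.

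Signals that Paneth cells send to the stem cells did not all go the same way. Wnt3, the canonical Wnt ligand of Paneth cells, stood at 2.61, 1.05 and 1.4 FPKM in CD24- and 20.9, 25.4 and 19.8 in CD24+ libraries (log2 fold change -3.13 ± 0.23, -3.50 scaled). Egf stood at 0.355, 0.14 and 0.105 against 2.94, 3.56 and 2.47 FPKM (-1.73 ± 0.19, -1.87 scaled). Both were lower without overlap, also when scaled. The epidermal growth factor receptor ligands Tgfa (7.57, 6.11 and 8.04 against 3.37, 2.78 and 3.04 FPKM) and Hbegf (5.36, 4.92 and 12.6 against 1.04, 0.984 and 1.83 FPKM) were higher, with log2 fold changes of 1.01 ± 0.18 and 1.83 ± 0.32 (0.53 and 1.38 scaled). Of 8 tested niche ligands 2 were thus higher and 2 lower, against 6 and 2 with TPM.

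Crypt base columnar stem cell markers were mostly lower in CD24- cells: 18 of 23 were called lower and 1 higher (22 and 0 scaled), at a median of -1.24 (-1.74 scaled). With TPM 5 stayed lower and 3 were higher. Lgr5, the R-spondin receptor that marks these cells, stood at 1.28, 0.854 and 0.359 FPKM in CD24- and 10.8, 9.71 and 9.34 in CD24+ libraries (log2 fold change -2.61 ± 0.21, -2.89 scaled), with limma adjusted p = 7.53e-06. Ephb3, a receptor that holds cells at the crypt base, stood at 3.49, 2.17 and 1.36 FPKM in CD24- and 19.1, 24.2 and 23.1 in CD24+ libraries (log2 fold change -2.84 ± 0.27, -3.24 scaled). Olfm4, a secreted stem cell product, stood at 362, 261 and 37.6 FPKM in CD24- and 1058, 959 and 845 in CD24+ libraries (log2 fold change -2.62 ± 0.67, -3.19 scaled), and within the CD24- group replicate 3 was far below the other two. For all 3 genes the lowest CD24+ library was above the highest CD24- library. Prom1 stood at 48.9, 41.7 and 27.1 against 44.2, 45.1 and 45.6 FPKM and was not called as deposited. It was called lower when scaled (-0.79, limma adjusted p = 0.00526) and higher with TPM (1.01, limma adjusted p = 0.00572). The called member that was higher was Sp5, a Wnt-induced transcription factor, at 1.81, 2.63 and 3.56 against 1.38, 1.25 and 1.01 FPKM (log2 fold change 0.71 ± 0.20), which lost its call when scaled.

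Wnt target genes share members with that list and were mostly lower, with 13 of 18 lower and 1 higher (14 and 0 scaled) at a median of -1.04. With TPM 7 were lower and 4 higher. Nkd1, a feedback inhibitor of Wnt signalling, stood at 0.414, 0.113 and 0.0455 FPKM in CD24- and 4.95, 3.98 and 3.71 in CD24+ libraries (log2 fold change -2.13 ± 0.18, -2.28 scaled). Tcf7, a TCF/LEF transcription factor, stood at 1.45, 0.83 and 0.829 FPKM in CD24- and 4.5, 4.22 and 5.37 in CD24+ libraries (log2 fold change -1.49 ± 0.18, -1.79 scaled). Neither gene had overlapping groups. The cyclin genes Ccnd1 (0.39) and Ccnd2 (0.58), which are listed among the targets, were not called as deposited. Ccnd2 was called higher with replicate number as a block (limma adjusted p = 0.00918). Ccnd1 was called lower with quantile normalization (-0.54, limma adjusted p = 0.0141).

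Eph receptors and ephrins, whose opposing gradients sort cells along the crypt axis, were split. Of 10 tested, 5 were called higher and 2 lower (5 and 4 scaled, 8 and 1 with TPM). The higher share, 50%, was near the 48.6% of all genes tested. The lower share, 20% against 7.27%, rests on 2 genes. The ligand Efnb2 stood at 22.9, 24.7 and 23.5 FPKM in CD24- and 2.78, 2.28 and 2.4 in CD24+ libraries (log2 fold change 2.83 ± 0.19, 2.31 scaled), with no overlap and little spread in either group. Efna1, another ephrin ligand, stood at 42.2, 53.7 and 66.9 FPKM in CD24- and 9.46, 12.2 and 11.4 in CD24+ libraries (log2 fold change 2.19 ± 0.26, 1.64 scaled), and Efnb1 at 25.3, 21.4 and 19.5 FPKM in CD24- and 6.27, 7.67 and 5.2 in CD24+ libraries (log2 fold change 1.65 ± 0.22, 1.12 scaled). These 3 ligands were higher. The receptor Ephb3 was lower, as given above, while the receptor Ephb2 was not called as deposited (12.3, 8.56 and 8.57 against 10.6, 13.02 and 12.3 FPKM) and called lower when scaled (-0.79). Epha1, also a receptor, was higher at 24.6, 24.6 and 24.2 against 4.47, 4.73 and 4.21 FPKM. Efna4 was lower at 4.9, 3.86 and 1.69 against 7.49, 7.68 and 6.01 FPKM (-0.91 ± 0.28). With TPM Ephb2 was called higher (0.89, limma adjusted p = 0.00514), and Efna4 had a positive difference that was not called.

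Transcription factors of secretory fate were mostly lower. Of 17 tested, 11 were called lower and 1 higher (13 and 1 scaled), whereas with TPM 2 were lower and 5 higher. Bhlha15 (Mist1), which builds the secretory apparatus of granule-filled cells, stood at 5.48, 1.83 and 1.43 FPKM in CD24- and 50.6, 54.5 and 37.6 in CD24+ libraries (log2 fold change -3.76 ± 0.34, -4.17 scaled). Atoh1 stood at 11.6, 4.28 and 4.5 FPKM in CD24- and 17.6, 18.3 and 16.4 in CD24+ libraries (log2 fold change -1.37 ± 0.31, -1.85 scaled), and CD24- replicate 1 lay nearer to the CD24+ libraries than replicates 2 and 3 did. Sox9, needed for Paneth cells, stood at 4.76, 2.69 and 1.94 FPKM in CD24- and 11.9, 13.9 and 10.98 in CD24+ libraries (log2 fold change -1.74 ± 0.24, -2.16 scaled). All 3 had groups that do not overlap. The member called higher was Klf4, a factor of differentiated cells, at 24.6, 20.6 and 48.4 FPKM in CD24- and 7.45, 8.2 and 8.36 in CD24+ libraries (log2 fold change 1.74 ± 0.28, 1.21 scaled). Xbp1, which expands the endoplasmic reticulum, stood at 117, 114 and 124 against 86.3, 88.5 and 98.2 FPKM. It was not called as deposited (limma adjusted p = 0.184) but was called higher with the replicate block (0.0428). Its difference was negative when scaled, and with quantile normalization it was called lower (-0.91, limma adjusted p = 0.000393).

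Few Notch pathway genes were called on the deposited values. Of 11 tested receptors, targets and modifiers, 3 were called higher and 1 lower as deposited, 2 and 5 when scaled, and 3 and 2 with the replicate block. With TPM 9 were higher and 0 lower. Hes1, the main transcriptional target in crypt progenitors, stood at 20.3, 16.5 and 8.76 FPKM in CD24- and 14.6, 13.9 and 10.4 in CD24+ libraries (log2 fold change 0.15 ± 0.31, -0.37 scaled), and its groups overlap. Notch1, a receptor, stood at 2.1, 1.42 and 0.559 FPKM in CD24- and 2.64, 2.76 and 1.48 in CD24+ libraries (log2 fold change -0.51 ± 0.27, -0.82 scaled). It was not called as deposited (limma adjusted p = 0.135) and was called lower when scaled (0.0174), with the block (0.0185) and without CD24- replicate 1. Dtx3l, listed with the Deltex family and also known as interferon-inducible, was higher at 23.9, 27.9 and 28.6 against 5.76, 6.51 and 5.46 FPKM (2.01 ± 0.29). The Fringe glycosyltransferases, which tune which ligand a Notch receptor answers, went opposite ways: Rfng stood at 11.4, 9.98 and 10.6 FPKM in CD24- and 3.92, 4.39 and 4.29 in CD24+ libraries (log2 fold change 1.17 ± 0.19, 0.66 scaled) and Lfng at 3.05, 1.49 and 0.503 FPKM in CD24- and 6.04, 5.83 and 3.78 in CD24+ libraries (log2 fold change -1.31 ± 0.31, -1.65 scaled). Maml1, a co-activator, was called higher by a small margin (0.50 ± 0.18) and lost the call when scaled and when any irradiated library other than CD24- replicate 3 was left out. Of 4 tested ligands 1 was higher and 1 lower (0 and 2 scaled, 3 and 1 with TPM). Dll3 was lower (-0.80 ± 0.20), with its levels at or below 1.32 FPKM, and Jag1 was higher (0.62 ± 0.18), a call lost when scaled or without CD24- replicate 1 or CD24+ replicate 3. Dll1 (10.9, 6.04 and 5.32 against 6.64, 7.5 and 4.91 FPKM) was not called. Dll4 (6.58, 4.77 and 7.2 against 7.38, 10.3 and 7.3 FPKM) was not called as deposited. It was called lower when scaled (-0.86) or quantile normalized, and higher with TPM (0.74, limma adjusted p = 0.0112).

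**Figure D3:**
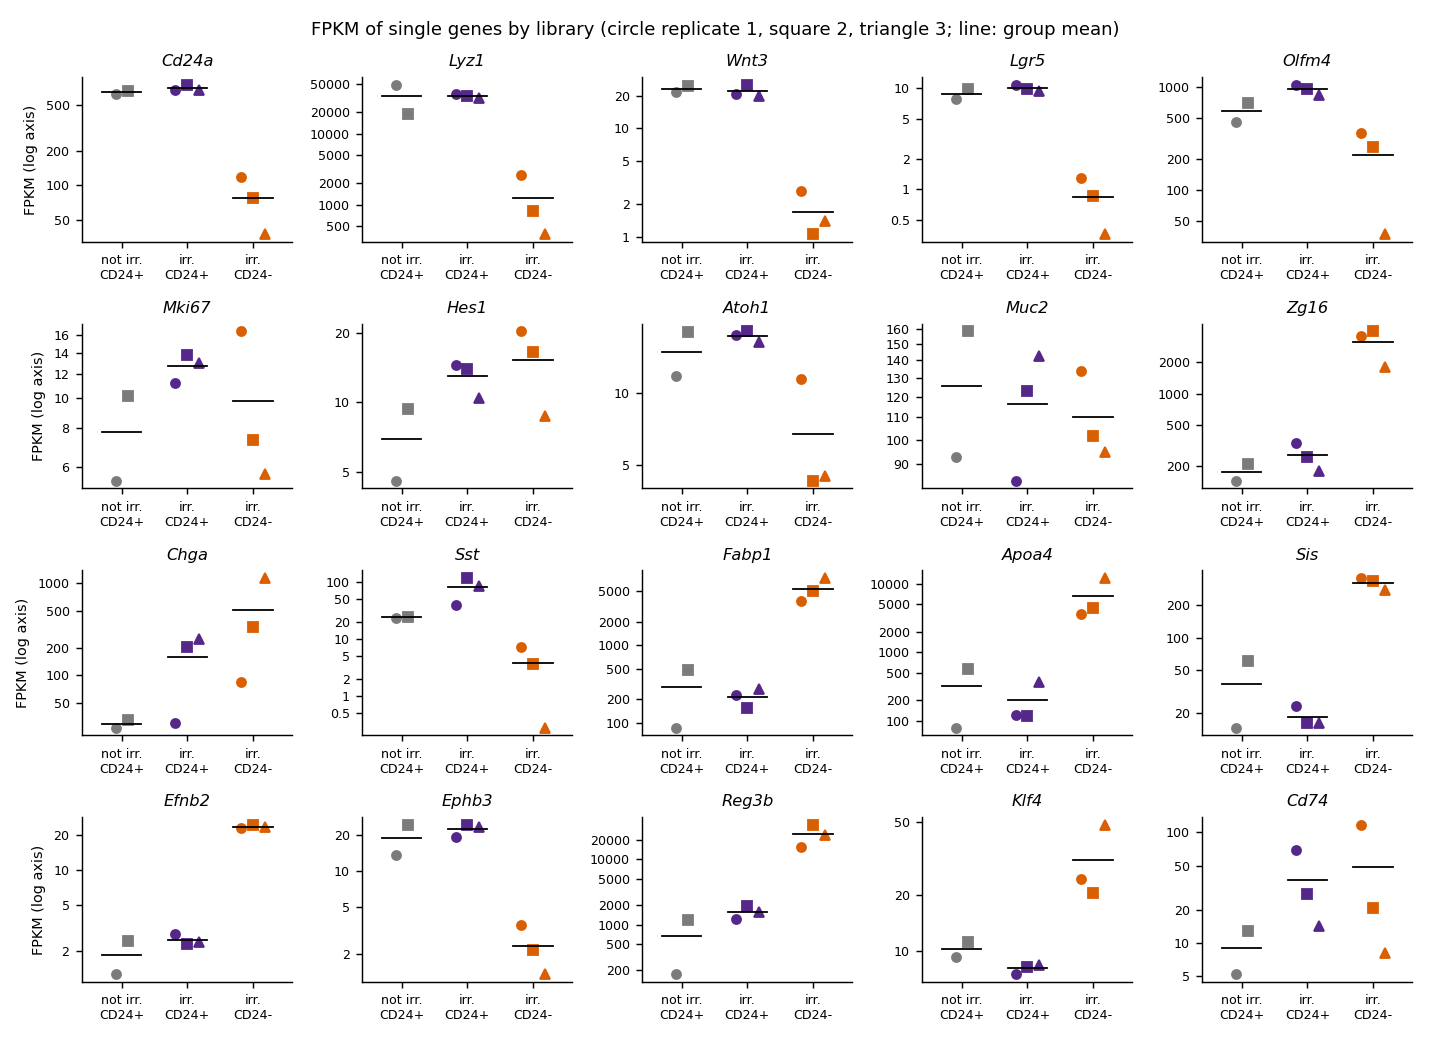
FPKM (log axis, its range set for each panel) of 20 genes in every library, with circles, squares and triangles for replicates 1, 2 and 3 and a line for the group mean. Fabp1, Apoa4, Sis, Efnb2, Reg3b and Zg16 lie higher in all 3 irradiated CD24- libraries than in any CD24+ library and Cd24a, Lyz1, Wnt3, Lgr5, Sst and Ephb3 lie lower, whereas Hes1, Mki67, Muc2, Chga and Cd74 overlap.

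The higher side was led by genes of the absorptive enterocyte. All 26 tested genes of fat absorption and lipoprotein assembly were called higher (25 scaled), at a median log2 fold change of 3.49 (2.94 scaled). Fabp1 stood at 3765, 5022 and 7384 FPKM in CD24- and 229.9, 153 and 269 in CD24+ libraries (log2 fold change 4.61 ± 0.56, 4.04 scaled). Apoa4, an apolipoprotein of chylomicrons, stood at 3608, 4424 and 12062 FPKM in CD24- and 122, 119.9 and 370.2 in CD24+ libraries (log2 fold change 5.03 ± 0.72, 4.46 scaled), and replicate 3 was the highest in both groups. Apoa1, the main protein of high-density lipoprotein, stood at 3705, 5919 and 6831 FPKM in CD24- and 138, 167 and 223 in CD24+ libraries (log2 fold change 4.94 ± 0.56, 4.37 scaled). Even the lowest CD24- library was above the highest CD24+ library for these 3 genes, which the rule that named Apoa4 required. Npc1l1, the cholesterol importer, stood at 125, 113 and 152 FPKM in CD24- and 7.28, 7.74 and 7.99 in CD24+ libraries (log2 fold change 3.91 ± 0.28, 3.35 scaled), with limma adjusted p = 5.58e-06. Cd36, a fatty acid receptor, went from under 1 FPKM in all CD24+ libraries (0.965, 0.817 and 0.653) to 16.5, 17.7 and 13.3 in CD24- libraries. Together the list held 2.99, 3.99 and 7.17% of all FPKM in CD24- libraries and 0.0753, 0.0769 and 0.121% in CD24+ libraries.

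Digestive hydrolases of the brush border were also higher: 20 of 21 were higher (20 scaled), at a median of 4.30 (3.78 scaled). Sis stood at 359, 339.7 and 275 FPKM in CD24- and 23.5, 16.2 and 16.2 in CD24+ libraries (log2 fold change 4.07 ± 0.41, 3.50 scaled). Mme (neprilysin, a peptidase) stood at 77.7, 98.8 and 108 FPKM in CD24- and 4.9, 2.99 and 3.07 in CD24+ libraries (log2 fold change 4.38 ± 0.33, 3.83 scaled). Akp3, an intestinal alkaline phosphatase that is not on this list, stood at 176, 213 and 767 FPKM in CD24- and 5.84, 7.6 and 25.7 in CD24+ libraries (log2 fold change 4.73 ± 0.69, 4.17 scaled), and replicate 3 was well above the other CD24- libraries. Cpn1 was the list member not called (0.71, 1.74 and 2.4 against 1.44, 1.9 and 4.18 FPKM). Among nutrient transporters 37 of 38 were higher (36 scaled, median 3.48). Slc51a, part of the basolateral bile acid exporter, stood at 144, 153 and 126 FPKM in CD24- and 10.3, 5.69 and 4.58 in CD24+ libraries (log2 fold change 4.24 ± 0.32, 3.69 scaled). Fabp6, the ileal bile acid binding protein, stood at 221, 316 and 398 FPKM in CD24- and 14.5, 9.14 and 2.88 in CD24+ libraries (log2 fold change 5.16 ± 0.43, 4.61 scaled). Slc46a1, the proton-coupled folate transporter, stood at 88.8, 105 and 161 FPKM in CD24- and 4.89, 5.2 and 6.32 in CD24+ libraries (log2 fold change 4.16 ± 0.30, 3.62 scaled). The transporter list had 1 member not called, Cybrd1, the duodenal ferric reductase, at 2.27, 3 and 24.5 against 9.84, 10.3 and 9.78 FPKM. Without CD24- replicate 3, its high library, it was called lower.

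Structural genes of the microvillus were higher in 25 of 25 cases (24 scaled), at a smaller median of 2.09 (1.52 scaled). Pls1, which bundles actin in microvilli, stood at 206, 229.6 and 218 FPKM in CD24- and 24.6, 21.4 and 24.9 in CD24+ libraries (log2 fold change 3.15 ± 0.29, 2.59 scaled). Anks4b, a member of the complex that links microvilli at their tips, stood at 80.95, 75.6 and 88.4 FPKM in CD24- and 13.8, 12.3 and 11.9 in CD24+ libraries (log2 fold change 2.59 ± 0.24, 2.04 scaled). Vil1 (villin) stood at 617, 636 and 699 against 99.1, 108 and 104 FPKM (2.64 ± 0.31), and Krt19, an epithelial keratin, at 1118, 1118 and 1109 against 182, 238 and 209 (2.41 ± 0.30). Of 27 general epithelial identity genes 24 were higher (22 higher and 2 lower scaled), and none was lower as deposited. Quantile normalization left 10 higher and 2 lower. Actb and Gapdh, often used as reference genes, were themselves higher (2.34 ± 0.37 and 2.60 ± 0.43), also when scaled (1.78 and 2.04) and under the other scalings.

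Regulators of enterocyte identity were mostly higher, by less than the absorption genes. Of 31 tested, 28 were called higher and 1 lower (27 and 2 scaled), at a median of 1.36. With quantile normalization 18 were higher and 3 lower. Maf, a factor of maturing enterocytes, stood at 16.3, 21.96 and 22.5 FPKM in CD24- and 0.992, 0.865 and 0.8 in CD24+ libraries (log2 fold change 3.48 ± 0.24, 2.99 scaled). Creb3l3, which drives lipid genes, stood at 166, 179.5 and 248 FPKM in CD24- and 8.93, 6.33 and 7.7 in CD24+ libraries (log2 fold change 4.51 ± 0.45, 3.96 scaled). All CD24+ values of Maf were below 1 FPKM. Nr1i3, a nuclear receptor for foreign compounds, stood at 15.8, 19.03 and 26.1 against 1.45, 1.66 and 0.843 FPKM, and Ihh, the hedgehog ligand that enterocytes send to the stroma, at 20.6, 18.5 and 16.1 against 2.87, 3.45 and 1.83. The member that was lower was Klf15, a factor of fasting metabolism, at 0.784, 0.795 and 0.562 FPKM in CD24- and 7.18, 8.6 and 5.57 in CD24+ libraries (log2 fold change -2.23 ± 0.19, -2.49 scaled). Cdx1, the intestinal homeobox factor, was not called as deposited (65.9, 52.9 and 33.1 against 37.6, 40.6 and 31.5 FPKM). It was called higher with the block (limma adjusted p = 0.0483) and lower with quantile normalization (-0.66, limma adjusted p = 0.0385).

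Genes of xenobiotic metabolism, the enzymes that oxidise, conjugate and export foreign compounds, were higher in 52 of 54 cases (50 scaled), with a median of 3.13 (2.60 scaled). Cyp4f40, a cytochrome P450, stood at 70.7, 55.96 and 40.96 FPKM in CD24- and 6.6, 5.58 and 3.3 in CD24+ libraries (log2 fold change 3.21 ± 0.26, 2.67 scaled), and Gstk1, a glutathione transferase, at 65.2, 76.3 and 73.4 FPKM in CD24- and 9.09, 9.25 and 10.4 in CD24+ libraries (log2 fold change 2.78 ± 0.19, 2.23 scaled). Gstm1 and Cyp2c29 were not called as deposited and were called higher with the block (limma adjusted p = 0.000269 and 0.0237). Both were highest in CD24- replicate 3, at 120.1 and 3.3 FPKM. Antioxidant genes were higher in 20 of 26 cases (18 scaled), while quantile normalization gave 11 higher and 3 lower. Sepp1, the selenium carrier, stood at 1149, 1248 and 1331 FPKM in CD24- and 65.6, 69.3 and 91.8 in CD24+ libraries (log2 fold change 4.04 ± 0.36, 3.47 scaled), and Gpx4, which repairs lipid peroxides, at 179, 246 and 249.5 FPKM in CD24- and 27.5, 32.4 and 36.4 in CD24+ libraries (log2 fold change 2.76 ± 0.31, 2.20 scaled). Gpx2, the gut glutathione peroxidase, was not called (468, 460.4 and 954 against 304, 362 and 981 FPKM), with replicate 3 the highest in both gates.

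Genes used at the villus tip were higher in 18 of 22 cases (15 scaled), at a median of 2.37. Gna11, a G protein subunit, stood at 257, 223 and 222 FPKM in CD24- and 32.6, 28.9 and 24.2 in CD24+ libraries (log2 fold change 3.0 ± 0.28, 2.44 scaled), evenly among replicates. Pnp, a purine enzyme, stood at 138, 148 and 131 FPKM in CD24- and 24.8, 25.7 and 24.5 in CD24+ libraries (log2 fold change 2.43 ± 0.26, 1.87 scaled). Other members of the list varied within the gate: the nuclear RNA Neat1 stood at 26.8, 22.6 and 156 FPKM in CD24- and 16.9, 23.2 and 35.4 in CD24+ libraries. Ifrd1, a stress-induced regulator, stood at 14.9, 15.6 and 68.2 against 9.89, 14.1 and 15.7 FPKM. Replicate 3 was the highest in both gates. Neither was called as deposited. With the block Neat1 had limma adjusted p = 0.0256 and Ifrd1 0.0183, both higher.

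Energy genes were nearly all higher. All 76 tested subunits of oxidative phosphorylation, the respiratory chain and ATP synthase, were called higher, also when scaled, at a median of 1.72 (1.16 scaled). With quantile normalization the count was 51. Sdhb, a subunit of complex II, stood at 362, 410.1 and 316 FPKM in CD24- and 71.3, 89.4 and 79.4 in CD24+ libraries (log2 fold change 2.16 ± 0.27, 1.60 scaled), and Uqcrfs1, the Rieske protein of complex III, at 251, 286 and 259.6 FPKM in CD24- and 61.3, 65.8 and 69.9 in CD24+ libraries (log2 fold change 2.0 ± 0.25, 1.43 scaled). Cox7a1, an isoform of a complex IV subunit, stood apart from the other subunits at 164, 195 and 150.0 FPKM in CD24- and 14.7, 12.6 and 9.72 in CD24+ libraries (log2 fold change 3.68 ± 0.32, 3.13 scaled). The subunits together held 4.37, 5.06 and 4.47% of FPKM in CD24- and 0.469, 0.59 and 0.614% in CD24+ libraries. Fatty acid oxidation genes were higher in 26 of 27 cases (26 scaled, median 1.88). Slc25a20, which carries acylcarnitines into mitochondria, stood at 61.2, 77.6 and 87.05 FPKM in CD24- and 9.71, 7.83 and 8.43 in CD24+ libraries (log2 fold change 2.97 ± 0.27, 2.42 scaled).

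Protein synthesis and turnover genes depended on the scaling. Mitochondrial ribosomal proteins were higher in 65 of 77 cases as deposited, 39 when scaled and 8 with quantile normalization, under which 5 were lower (median 0.87, 0.32 scaled). Of 83 cytosolic ribosomal proteins 3 were called higher and 0 lower by limma, with 4 and 0 at an unadjusted p under 0.05. The higher count was 2 when scaled, 13 with the block, 12 without non-irradiated CD24+ replicate 1 and 82 with TPM, and with quantile normalization 32 were lower. Their median of 0.40 (-0.16 scaled) lay near that of all genes, 0.51 (0.0376 scaled). Fau, a ribosomal protein fused to a ubiquitin-like part, stood at 670.1, 755 and 529 FPKM in CD24- and 239.7, 275 and 242 in CD24+ libraries (log2 fold change 1.35 ± 0.33, 0.78 scaled), while Rps12 was not called at 1955, 2134 and 1295 against 1223, 1416 and 1444 FPKM. Proteasome subunits were higher in 34 of 37 cases, 18 when scaled, 3 with quantile normalization (with 8 lower) and 18 without CD24+ replicate 1. Among the named members were the immunoproteasome subunits Psmb8 (86.03, 117 and 57.03 against 16.3, 16.5 and 10.5 FPKM, 2.47 ± 0.40), Psmb9 (2.09 ± 0.31) and Psmb10 (2.15 ± 0.30), which cut peptides for antigen presentation. Cholesterol synthesis genes were higher in 19 of 23 cases, 9 when scaled, 3 with quantile normalization and 12 without CD24+ replicate 1. Sc5d, a late enzyme of the pathway, stood at 48.5, 49.2 and 59.1 FPKM in CD24- and 14.9, 16.8 and 18.5 in CD24+ libraries (log2 fold change 1.58 ± 0.23, 1.03 scaled).

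Genes of the secretory route were split. Of 53 genes of protein entry, glycosylation and folding in the endoplasmic reticulum (ER), 10 were higher and 5 lower as deposited, but 2 and 31 when scaled, 47 and 1 with TPM, and 0 and 47 with quantile normalization. The lower count was 11 with the block or without non-irradiated CD24+ replicate 1, and the higher count 3 without CD24+ replicate 1. The median moved from 0.14 to -0.42, below the median gene both times. Fkbp11, a folding enzyme of secretory cells, stood at 9.06, 6.8 and 11.1 FPKM in CD24- and 33.6, 54.2 and 42.5 in CD24+ libraries (log2 fold change -2.15 ± 0.25, -2.66 scaled), and Canx (calnexin) at 155, 141 and 133 FPKM in CD24- and 64.3, 71.7 and 69.5 in CD24+ libraries (log2 fold change 1.05 ± 0.24, 0.49 scaled). Unfolded protein response genes were 5 higher and 7 lower of 24 (1 and 15 scaled, 15 and 2 with TPM, 1 and 18 with quantile normalization). Ern2, the stress sensor of mucosal secretory cells, stood at 10.9, 4.36 and 5.65 FPKM in CD24- and 19.7, 26.7 and 23.4 in CD24+ libraries (log2 fold change -1.68 ± 0.28, -2.17 scaled), and Derl3, part of ER-associated degradation, at 0.415, 0.15 and 0.223 FPKM in CD24- and 3.88, 5.4 and 2.67 in CD24+ libraries (log2 fold change -1.95 ± 0.21, -2.11 scaled). Nupr1, a stress-induced nuclear protein, had the largest difference of the named members at 30.1, 8.67 and 11.4 FPKM in CD24- and 258, 216 and 234 in CD24+ libraries (log2 fold change -3.93 ± 0.37, -4.46 scaled). On the higher side, Ddit3, the pro-death factor CHOP, stood at 9.08, 10.4 and 19.7 FPKM in CD24- and 4.26, 5.61 and 4.77 in CD24+ libraries (log2 fold change 1.19 ± 0.29, 0.68 scaled), a call lost when scaled. Without CD24+ replicate 2 the lower count of this list was 4, and without CD24- replicate 3 the higher count was 3.

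Coat and cargo genes between ER and Golgi were higher in 27 of 36 cases and lower in 2 (20 and 5 scaled), although quantile normalization gave 5 and 14. Sec23a, a coat protein of ER export vesicles, stood at 57.2, 58.8 and 63.5 FPKM in CD24- and 8.36, 6.6 and 6.11 in CD24+ libraries (log2 fold change 2.93 ± 0.24, 2.38 scaled). Its paralog Sec23b was not called as deposited (42.3, 40.2 and 51.9 against 29.4, 36.8 and 34.1 FPKM). It was called higher with the block (limma adjusted p = 0.0344) and lower with quantile normalization (-0.65, limma adjusted p = 0.00273). Sar1b, the GTPase needed to export chylomicrons, stood at 122, 166 and 235 FPKM in CD24- and 32.7, 32.1 and 37.8 in CD24+ libraries (log2 fold change 2.27 ± 0.30, 1.71 scaled). Copz2, a coat subunit of the return route, went the other way at 2.39, 1.19 and 0.617 FPKM in CD24- and 24.5, 24.6 and 19.5 in CD24+ libraries (log2 fold change -3.38 ± 0.26, -3.71 scaled). Proton pump and lysosome genes were higher in 30 of 33 cases (20 scaled, and 9 with quantile normalization, under which 5 were lower). Atp6v0c, the pump's membrane ring subunit, was listed at 149, 171 and 235 FPKM in CD24- and 0.314, 0.538 and 0.287 in CD24+ libraries. Its pseudogene Atp6v0c-ps2 was the reverse, at 0.184, 0.265 and 0.144 and 46.8, 68.2 and 66.2 FPKM. The non-irradiated CD24+ libraries differed from each other in the same mirrored way (0.164 and 59.1 FPKM for the gene and 32.4 and 0.194 for the pseudogene). Near-identical copies share reads, so the large fold of either is uncertain.

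**Figure D4:**
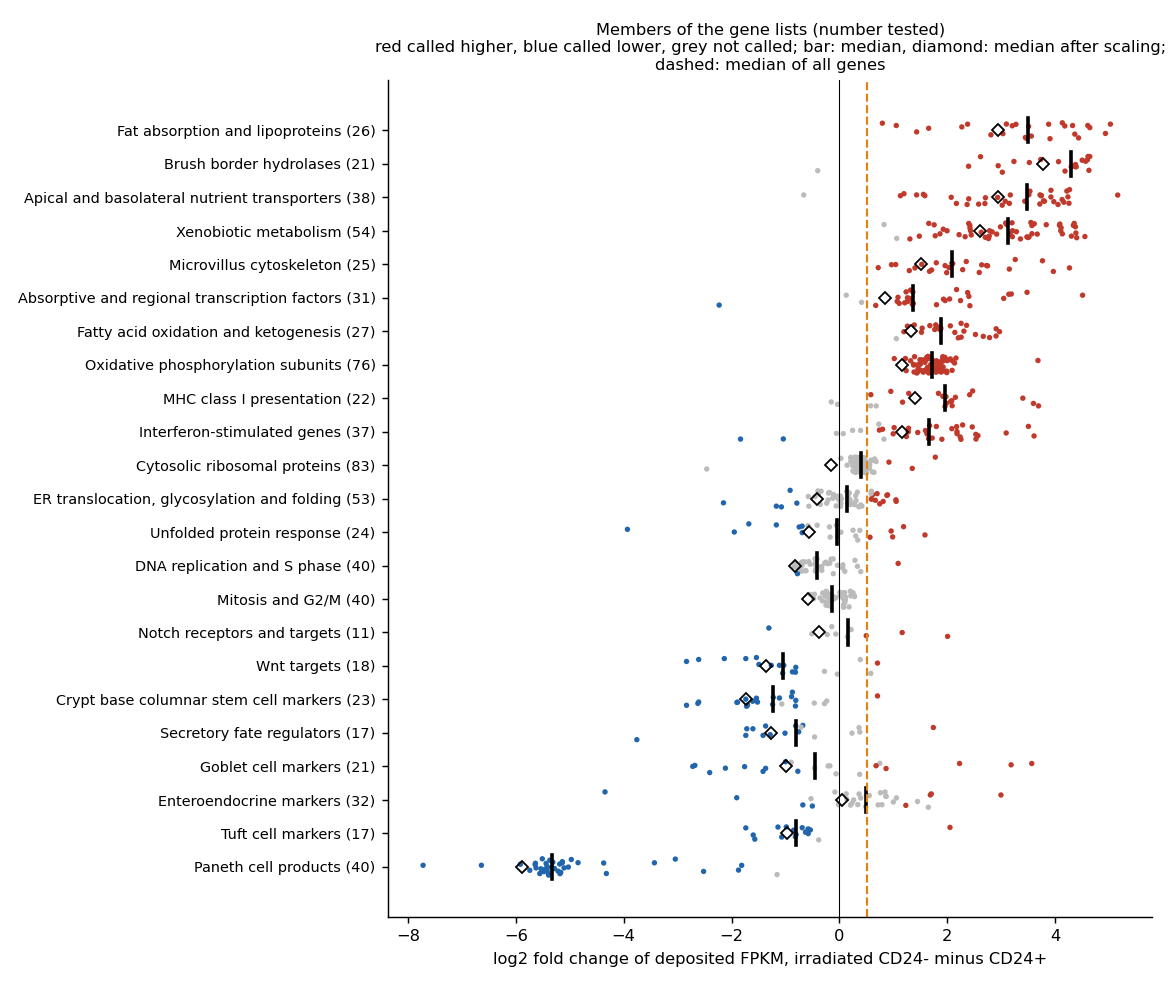
Log2 fold change of deposited FPKM (x axis, CD24- minus CD24+) for each tested member of 23 gene lists (rows, number tested in parentheses), coloured by limma call, with the median as a bar and the median after scaling as a diamond. Medians run from 4.30 for brush border hydrolases to -5.33 for Paneth cell products around the all-gene median of 0.51 (dashed). With TPM the calls turn mostly higher for the mitosis, S phase, ER, unfolded protein response, goblet, enteroendocrine, Notch and secretory regulator lists. Calls among all genes tested are also mostly higher with TPM (97.5%). With quantile normalization the calls turn mostly lower for the cytosolic ribosomal, ER, S phase, mitosis and enteroendocrine lists. They also turn for the Notch list, with 2 higher and 3 lower. Of the calls among all genes tested 45.1% are then higher.

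Few cell cycle genes were called as deposited, and many were called lower when scaled. As deposited the medians were -0.42 for DNA replication and -0.13 for mitosis, below the 0.51 of all genes. Of the 40 members of each list, 1 and 0 lay above the median gene. Of 40 genes of DNA replication, 1 was called higher and 1 lower, against 1 and 32 when scaled. The lower count was 36 with quantile normalization, 8 with the block and 7 without CD24- replicate 1, whereas with TPM 19 were higher and 0 lower. None of the 40 genes of mitosis was called as deposited by limma, and 0 had an unadjusted p under 0.05. Of them 21 were lower when scaled, 32 were lower with quantile normalization, 3 were lower without CD24- replicate 1, and 36 were higher with TPM. Mki67, a protein of cycling cells, stood at 16.5, 7.3 and 5.7 FPKM in CD24- and 11.2, 13.8 and 13.03 in CD24+ libraries (log2 fold change -0.46 ± 0.33, -0.97 scaled). CD24- replicate 1 was above all CD24+ libraries and replicates 2 and 3 below them. Top2a, the topoisomerase of dividing cells, stood at 31.1, 21.6 and 11.5 FPKM in CD24- and 23.8, 26.8 and 34.5 in CD24+ libraries (log2 fold change -0.48 ± 0.34, -1.02 scaled), again highest in CD24- replicate 1. E2f1, which starts replication, was lower (1.83, 1.19 and 0.625 against 2.28, 2.96 and 2.9 FPKM, -0.78 ± 0.22, positive with TPM). Among the CD24- libraries the list sums were ordered as the Paneth product share, with replicate 1 highest and replicate 3 lowest, whereas in CD24+ libraries replicate 3 was the highest.

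Genes of the damage response were called in both directions, as genes in general were, though with TPM none was lower. Of 27 p53 targets 9 were higher and 2 lower (5 and 5 scaled), with 5 lower under the block and 4 without non-irradiated CD24+ replicate 1. Their shares were 33.3% higher and 7.41% lower, against 48.6% and 7.27% of all genes tested. Quantile normalization gave 5 higher and 7 lower, and TPM 20 higher and 0 lower. Fas, a death receptor, stood at 12.8, 17.1 and 13.8 FPKM in CD24- and 2.46, 2.23 and 2.72 in CD24+ libraries (log2 fold change 2.16 ± 0.20, 1.65 scaled), and Pmaip1 (Noxa), which triggers apoptosis, at 11.2, 13.3 and 19.1 FPKM in CD24- and 4.14, 3.47 and 3.7 in CD24+ libraries (log2 fold change 1.67 ± 0.24, 1.16 scaled). Eda2r stood at 0.362, 0.268 and 1.43 FPKM in CD24- and 2.64, 1.59 and 2.64 in CD24+ libraries (log2 fold change -1.01 ± 0.25, -1.23 scaled) and at 0.262 and 0.293 FPKM in non-irradiated CD24+ cells. It was thus lower in CD24- than in irradiated CD24+ cells without overlap. Ccng1, another target, was not called as deposited (33.4, 31.9 and 71.7 against 53.5, 37.03 and 51.1 FPKM) and was called higher with TPM (1.11, limma adjusted p = 0.007). Immediate early genes were higher in 10 and lower in 1 of 18 cases (8 and 3 scaled), with 2 lower under the block and 0 with TPM. Klf6, a fast-response factor, stood at 21.7, 27.2 and 34.8 FPKM in CD24- and 6.21, 6.23 and 8.01 in CD24+ libraries (log2 fold change 1.87 ± 0.26, 1.33 scaled). Myc, which drives growth, was lower at 8.56, 5.97 and 3.04 FPKM in CD24- and 10.6, 14.4 and 11.8 in CD24+ libraries (log2 fold change -1.03 ± 0.32, -1.51 scaled), a call lost without CD24- replicate 3 (log2 fold change then -0.69) or CD24+ replicate 2, and its difference was positive with TPM. Of 16 regenerative or fetal-like genes 5 were higher (3 scaled, 10 with the block, 12 with TPM), 8 without CD24- replicate 2 and 3 without CD24+ replicate 1. S100a10, an annexin partner, stood at 580.0, 577 and 779 FPKM in CD24- and 96.8, 92.2 and 117 in CD24+ libraries (log2 fold change 2.64 ± 0.32, 2.08 scaled), and Il33, an epithelial alarm cytokine, at 3.5, 4.73 and 14.6 FPKM in CD24- and 0.175, 0.126 and 0.917 in CD24+ libraries (log2 fold change 2.44 ± 0.40, 2.03 scaled). Cd55, which restrains complement, stood at 14.3, 14.2 and 33.95 against 2.95, 3.27 and 3.91 FPKM (2.20 ± 0.30). For Il33 and Cd55 replicate 3 was the highest CD24- library.

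Defence genes of the absorptive epithelium were mostly higher. Of 20 enterocyte antimicrobial and chemokine genes 16 were higher and 2 lower (13 and 2 scaled, 18 and 0 with TPM). Reg3b, a lectin that acts against bacteria, was the most abundant gene in CD24- cells, at 15378, 33781 and 23833 FPKM in CD24- and 1208, 1952 and 1567 in CD24+ libraries (log2 fold change 3.90 ± 0.65, 3.33 scaled). Reg3g, its paralog, stood at 8229.8, 13010.3 and 11279 against 2420.1, 3566 and 6078 FPKM without overlap. It missed the threshold (limma adjusted p = 0.064) but was called with the block (0.0225). Lypd8, which keeps bacteria from the surface, stood at 5495, 8238 and 4321 FPKM in CD24- and 855, 1106 and 720.1 in CD24+ libraries (log2 fold change 2.72 ± 0.49, 2.15 scaled). Ccl25, the chemokine of the small bowel, stood at 368, 445 and 287 FPKM in CD24- and 53.8, 43.4 and 25.7 in CD24+ libraries (log2 fold change 3.17 ± 0.35, 2.61 scaled), and Il15, a lymphocyte growth factor, at 6.24, 9.09 and 10.2 FPKM in CD24- and 1.31, 1.16 and 1.06 in CD24+ libraries (log2 fold change 2.11 ± 0.21, 1.64 scaled). On the lower side Pglyrp1, a peptidoglycan recognition protein, stood at 146, 142 and 119.5 FPKM in CD24- and 277, 312 and 278 in CD24+ libraries (log2 fold change -1.09 ± 0.25, -1.65 scaled), with a positive difference under TPM. Retnlb, an antimicrobial of goblet cells, varied within CD24+ cells (19.5, 184 and 154 FPKM) and was lower at 7.05, 18.3 and 18.1, a call lost without CD24- replicate 1 or CD24+ replicate 2 or 3. This list held 6.08, 10.9 and 7.93% of FPKM in CD24- and 0.398, 0.596 and 0.695% in CD24+ libraries.

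Antigen presentation differed by class. Class I genes were higher in 18 of 22 cases (16 scaled, median 1.97). H2-Q2 stood at 223, 326 and 291 FPKM in CD24- and 20.98, 25.7 and 19.5 in CD24+ libraries (log2 fold change 3.60 ± 0.30, 3.04 scaled) and H2-T3, a non-classical molecule of the gut epithelium, at 37.7, 42.4 and 25.8 FPKM in CD24- and 3.61, 3.13 and 1 in CD24+ libraries (log2 fold change 3.40 ± 0.38, 2.88 scaled). H2 genes are near copies of each other, so reads may be shared among them. Of 8 class II genes 2 were called higher, Ctss (107, 146 and 126 against 18.4, 16.4 and 12.1 FPKM, 2.95 ± 0.32) and Ifi30 (175, 184 and 139 against 48.05, 64.9 and 52.8, 1.57 ± 0.26), both of which process antigen in lysosomes. The count was 4 with TPM and 1 with quantile normalization. The class II invariant chain Cd74 was not called and varied within both gates, at 118, 20.8 and 8.15 and 70.03, 27.7 and 14.2 FPKM. H2-Ab1, a class II chain, did the same at 30.3, 6.77 and 3.51 and 19.5, 5.25 and 3.53 FPKM. Replicate 1 was the highest in both gates. Interferon-stimulated genes were higher in 29 of 37 cases and lower in 2 (18 and 2 scaled). Quantile normalization left 13 higher, and with TPM none was lower. Irf1, a transcription factor of the response, stood at 62.4, 62.3 and 53.3 FPKM in CD24- and 16.8, 17.8 and 17.2 in CD24+ libraries (log2 fold change 1.72 ± 0.23, 1.17 scaled), and Oas3, a sensor of double-stranded RNA, at 7.25, 12.1 and 17.9 FPKM in CD24- and 0.648, 1.77 and 1.3 in CD24+ libraries (log2 fold change 2.53 ± 0.50, 2.06 scaled). Ifitm3, which blocks viral entry and is also used by stem cells, was lower at 50.01, 46.4 and 17.1 FPKM in CD24- and 105, 129 and 142 in CD24+ libraries (log2 fold change -1.83 ± 0.49, -2.38 scaled).

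Markers of the other secretory and sensory lineages were divided. Among goblet markers 5 were higher and 9 lower of 21 (3 and 14 scaled), and with TPM 11 were higher and 5 lower. Zg16, a lectin of the mucus, stood at 3579.9, 3954 and 1804 FPKM in CD24- and 337, 246 and 182 in CD24+ libraries (log2 fold change 3.57 ± 0.39, 3.0 scaled), and Clca3, a mucus protease, at 499.7, 440.5 and 284 FPKM in CD24- and 46.3, 33.8 and 49.8 in CD24+ libraries (log2 fold change 3.19 ± 0.28, 2.62 scaled). Fcgbp, a mucus protein that binds the mucin, stood at 929, 773 and 467 FPKM in CD24- and 122, 204 and 129 in CD24+ libraries (log2 fold change 2.23 ± 0.34, 1.66 scaled). Muc2, the gel-forming mucin itself, was not called as deposited at 134, 102 and 94.9 FPKM in CD24- and 83.9, 123 and 143 in CD24+ libraries (log2 fold change -0.06 ± 0.30, -0.63 scaled), and its groups overlap. With TPM it was called higher (1.19, limma adjusted p = 0.00504). Spink4, a secreted peptide of goblet and Paneth cells, was lower at 2124, 1664 and 946 FPKM in CD24- and 6593, 11958 and 11182 in CD24+ libraries (log2 fold change -2.68 ± 0.49, -3.25 scaled). Mucus genes of the list thus went in different directions, and Atoh1 and Spdef, which it shares with the secretory regulators, were lower.

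Of 32 enteroendocrine markers 4 were higher and 4 lower (2 and 5 scaled), with 17 higher under the block and 16 without CD24- replicate 1. With TPM 27 were higher and 1 lower, with quantile normalization 1 and 6, and 2 were lower without CD24+ replicate 2. Chga, a granule protein of all these cells, stood at 84.2, 332 and 1132 FPKM in CD24- and 30.6, 201 and 246 in CD24+ libraries (log2 fold change 1.45 ± 0.89, 0.89 scaled). Its values spread widely within the CD24- gate, with replicate 1 lowest in both gates. It was not called as deposited (limma adjusted p = 0.189) but was called with the block (0.000425) and without CD24- replicate 1. Hormone genes differed from each other. Somatostatin (Sst) stood at 7.33, 3.59 and 0.278 FPKM in CD24- and 39.7, 117 and 84.7 in CD24+ libraries (log2 fold change -4.35 ± 0.58, -4.74 scaled) and ghrelin (Ghrl) at 17.6, 71.5 and 35.6 FPKM in CD24- and 77.3, 152 and 215 in CD24+ libraries (log2 fold change -1.90 ± 0.47, -2.45 scaled), both lower without overlap. Cholecystokinin (Cck) stood at 30.5, 119 and 57.05 FPKM in CD24- and 17.2, 17.2 and 18.2 in CD24+ libraries (log2 fold change 1.71 ± 0.38, 1.15 scaled) and neurotensin (Nts) at 6.58, 60.7 and 27.99 FPKM in CD24- and 4.97, 3.46 and 0 in CD24+ libraries (log2 fold change 3.0 ± 0.73, 2.50 scaled), both higher, and highest in CD24- replicate 2. Tuft cell markers were lower in 14 of 17 cases and higher in 1 (16 and 1 scaled). With TPM 8 were lower, and 10 without CD24+ replicate 2. Their levels were low in these libraries, such as 0.963, 0.422 and 0.0559 against 3.28, 5.53 and 1.93 FPKM for Rgs13, a regulator of G protein signals. Dclk1, the usual marker, stood at 0.16, 0.0729 and 0.0549 against 0.801, 1.28 and 0.339 FPKM (-0.69 ± 0.19). In the non-irradiated CD24+ libraries they stood at 7.72 and 9.96 FPKM for Rgs13 and 1.6 and 1.54 for Dclk1. The exception was Ltc4s, a leukotriene enzyme, at 5.5, 9.31 and 6.43 FPKM in CD24- and 0.607, 1.32 and 0.873 in CD24+ libraries (log2 fold change 2.05 ± 0.25, 1.61 scaled).

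Ion and water transport genes included absorptive exchangers that were higher and a secretory cotransporter that was lower. In all 20 of 31 were higher and 7 lower (18 and 9 scaled), with 3 lower without CD24- replicate 3 and 0 with TPM. Slc9a3, the sodium-proton exchanger of the brush border, stood at 62.1, 58.1 and 70.9 FPKM in CD24- and 4.2, 3.62 and 3.61 in CD24+ libraries (log2 fold change 3.75 ± 0.30, 3.21 scaled). Slc26a3, the chloride-bicarbonate exchanger, stood at 77.8, 78.7 and 64.3 FPKM in CD24- and 7.61, 5.43 and 4.79 in CD24+ libraries (log2 fold change 3.44 ± 0.28, 2.89 scaled). Slc12a2, which loads chloride for secretion, stood at 42.7, 25.2 and 9.33 FPKM in CD24- and 98.5, 85.6 and 68.8 in CD24+ libraries (log2 fold change -1.89 ± 0.44, -2.43 scaled). Aqp1, a water channel, stood at 51.9, 41.2 and 8.28 FPKM in CD24- and 119.6, 130.5 and 72.9 in CD24+ libraries (log2 fold change -1.94 ± 0.55, -2.48 scaled). For Slc12a2 and Aqp1 CD24- replicate 3 was the lowest library.

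Some genes were read in 1 gate and hardly in the other. At a threshold of 1 FPKM, 317 genes reached it in all 3 CD24- libraries and in none of the CD24+ libraries, and 209 the reverse. After scaling the numbers were 198 and 429, so which gate holds more of such genes turns with the scaling. Most were low: 75 of the 317 and 20 of the 209 had a group mean of at least 5 FPKM. On the CD24- side, besides Maf and Atp6v0c, the most abundant were Ces2d-ps, Slc13a2, Gdpd2 and Cst6. Ces2d-ps, a carboxylesterase pseudogene with close expressed copies, stood at 72.96, 97.8 and 122 against 0, 0 and 0.646 FPKM. Slc13a2, a citrate and succinate transporter, stood at 19.4, 23.6 and 32.2 against 0.769, 0.736 and 0.986 FPKM. Gdpd2, a phosphodiesterase, stood at 14.8, 21.6 and 23.96 against 0.631, 0.778 and 0.797 FPKM. Cst6, a cysteine protease inhibitor, stood at 12.8, 19.9 and 15.04 against 0.809, 0.881 and 0.715 FPKM. On the CD24+ side Thbs1, a matrix glycoprotein, stood at 0.769, 0.514 and 0.475 against 9.27, 13.1 and 11.8 FPKM. Fzd9, a Wnt receptor of the Frizzled family, stood at 0.954, 0.211 and 0.0788 against 10.6, 10.2 and 7.6 FPKM. Samd5, 1810010D01Rik and Scgb2b17 were also on this side.

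The 3 CD24- libraries were not alike. Of 5456 genes with a CD24- mean of at least 10 FPKM, 120 had a highest library at least 4 times the lowest, and the highest was replicate 1 for 44, replicate 2 for 9 and replicate 3 for 67. Among Paneth products 30 of 33 such genes spread this much, all highest in replicate 1. Stem cell markers spread in 5 of 6 cases, also highest in replicate 1. Villus-tip genes spread in 7 of 21 cases and regenerative genes in 4 of 9, all highest in replicate 3, and enteroendocrine markers in 9 of 13, of which 7 were highest in replicate 3 and 2 in replicate 2. Replicate 1 therefore held the most Paneth, stem cell and cell cycle transcript of the CD24- group, and replicate 3 the most fat absorption and villus-tip transcript. Same-numbered CD24+ libraries shared part of this order: enteroendocrine markers summed lowest in replicate 1 and villus-tip and fat absorption genes highest in replicate 3 of both gates. Cell cycle sums did not share it. The share of Paneth transcript varied beside these lists among the 3 CD24- libraries, and its part in the spread was not tested.

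**Figure D5:**
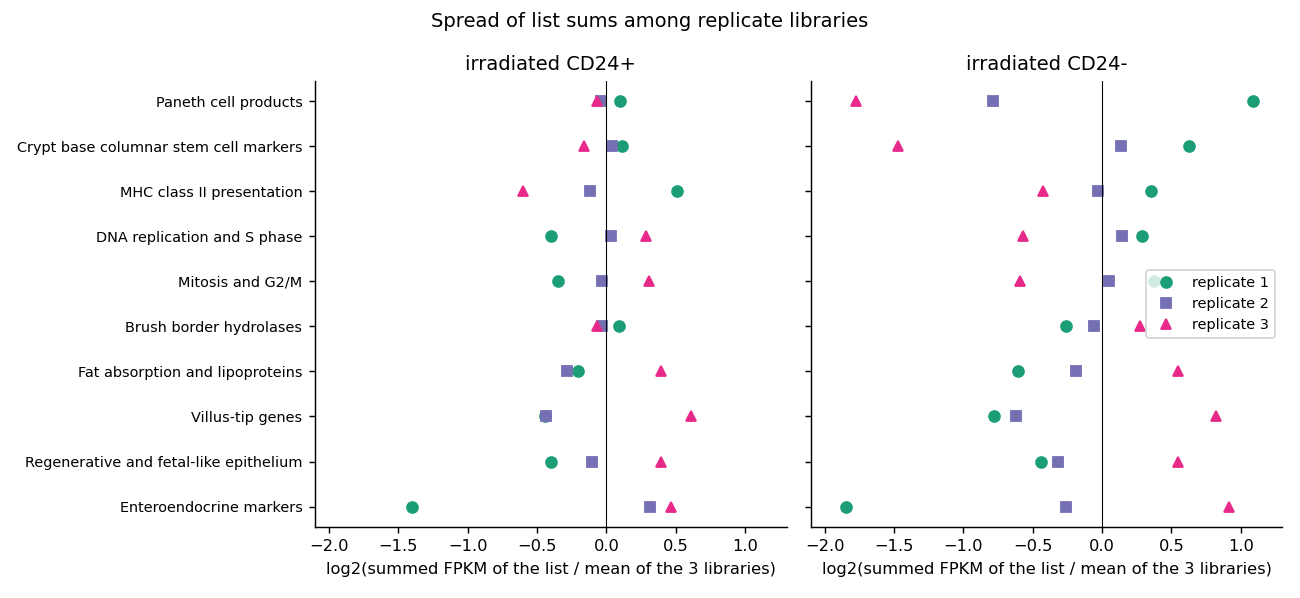
Log2 of the summed FPKM of 10 gene lists in each library over the mean of its 3 replicates (x axis), for irradiated CD24+ (left) and irradiated CD24- cells (right), with green circles, violet squares and pink triangles for replicates 1, 2 and 3. In CD24- cells Paneth and stem cell genes are highest in replicate 1, and villus-tip and enteroendocrine genes are highest in replicate 3.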

How the data were processed

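RNA of sorted cells was sequenced from TruSeq RNA v2 libraries, per the labels' protocols. That kit does not mark strand, so overlapping antisense genes cannot be told apart. The submitters' processing notes name TopHat2 2.1.0, StringTie 1.3.4 and mm9, and the authors deposited 1 table of FPKM per gene. FPKM keeps no read totals, so the depth of a library is unknown and no counting interval is given. Near-identical copies (defensins, H2 genes, pseudogenes) may share reads.

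Of the entries, 25 have date-like names and are not named, and repeated symbols were summed. Genes at 1 FPKM or more in at least 2 of 8 libraries were fitted on log2(FPKM + 1) with limma 3.58.1 (R 4.3.3), with a mean-variance trend, over all 8 libraries, and p-values were adjusted by Benjamini-Hochberg over all 11190 genes (threshold 0.05). The pseudocount of 1 understates the change of low genes. Fits with median-of-ratios scaling are given beside the main ones. Other alternatives were quantile normalization, rescaling to TPM, scaling to the FPKM outside Paneth products, other pseudocounts and filters, leaving out each replicate, fitting 2 groups only, and replicate number as a block. Same-numbered CD24+ and CD24- libraries deviated from their group means together (r = 0.366, 0.231 and 0.402 across genes, which are not independent replicates). Pairing by number was inferred from these same data and enters only the fits with the replicate block. The main fit and its calls do not use it. The fit was tested on simulated data in which few genes changed, all above a minimum level, up or down at random. Library make-up was not shifted there, whereas in the real comparison 55.9% of genes were called. In the simulation the fit recovered 43.6% of 2-fold and 91.2% of 4-fold changes, and 5.08% of its calls were false. These rates may not hold for the real data. A gene not called may therefore still differ.

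The 44 gene lists, the members and the comparison were chosen with earlier results of these data known. Named genes were, in each direction, the 10 largest changes at 5 FPKM or more without overlap, the 8 smallest adjusted p, up to 4 called members of each list and up to 2 abundant uncalled ones, the 5 most abundant genes of each group, the 6 most abundant genes read in 1 gate, and a fixed set of markers. A few genes that this rule names are not reported here. List counts carry no test. Promoter sequences are from RefSeq (GRCm38.p6), matched by symbol. Python 3.11.15 and pandas 2.3.3 made the tables and matplotlib 3.10.9 the plots.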

Additional observations from a re-analysis of the deposited data

How the results depend on the processing

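The counts of higher and lower genes depended most on how the libraries were scaled. Median-of-ratios scaling gave 3625 higher and 2726 lower genes at a median log2 fold change of 0.0376, quantile normalization 2800 and 3407 at -0.0707, and TPM 10000 and 260 at 1.60. Scaling to FPKM outside Paneth products moved the median to 0.35. A filter at 5 FPKM left 401 lower genes and a median of 0.73, no filter a median of 0.149, and a pseudocount of 0.1 a median of 0.60. Leaving out 1 library at a time gave 4355 to 6140 higher and 594 to 915 lower genes and medians of 0.46 to 0.55. With median-of-ratios scaling and CD24- replicate 1, 2 or 3 left out, 3498, 3278 and 3506 genes were higher and 2636, 2213 and 2375 lower, at medians of 0.0382, 0.0343 and 0.0535. A replicate left out leaves every arm with at least 2 libraries, except the non-irradiated arm, whose lone library is assumed to vary like the others. With the replicate block the counts were 6196 and 979, and with the block and median-of-ratios scaling 2816 genes were lower at a median of 0.0376. Among the 308 named genes the block gained 36 calls and lost 0. Beyond those printed beside a result it changed no other call of a gene named in the results above. Highest entries of repeated symbols changed nothing in these counts.

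Some differences changed sign with the main or the alternative value past the threshold. With median-of-ratios scaling these were Atf4 -0.53, Lamp2 -0.35 and Cd14 -0.38. With quantile normalization they were Xbp1 -0.91, Ccnd1 -0.54, Cdx1 -0.66, Mrpl52 -0.62, Mrpl13 -0.45, Psmd7 -0.50, Psmd12 -0.38, Canx -0.24, Stt3b -0.25, Ostc -0.53, Derl1 -0.10, Derl2 -0.14, Atf4 -1.20, Sec23b -0.65, Lamp2 -0.91, Pcna -0.93, Ube2c -0.89 and Cd14 -0.39. With TPM they were Dll4 0.74, Prom1 1.01, Ets2 0.78, Hes6 1.16, Efna4 0.12, Ephb4 0.85, Ephb2 0.89, Tmed3 0.0776, Ero1lb 0.0365, Sec11c 0.34, Agr2 1.06, Asns 0.0716, Tmed9 0.40, Lman1 0.88, E2f1 0.0133, Ccng1 1.11, Myc 0.0874, Btg2 1.19, Ifitm2 0.21, H2-Q7 0.73, Pglyrp1 0.17, Isl1 0.17, Neurog3 0.11, Krt18 0.90, Aqp4 0.25, Kcnq1 0.90 and Muc2 1.19. With the replicate block and median-of-ratios scaling they were Hes1 -0.37, Atf4 -0.53 and Cd14 -0.38. With that scaling and CD24- replicate 1 left out they were Maml1 -0.0356, Atf4 -0.48 and Cd14 -0.46, and without replicates 2 and 3 the value of Atf4 was -0.51 and -0.58. Over the other values (single genes and list counts, each under each alternative) 7846 stayed on the same side, 278 gained and 178 lost a call and 317 counts moved by more than 1.5 times. The scalings differ in construction, and which is closest to RNA per cell was not tested. FPKM gives no read totals, so what depth limits is unknown.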

Other observations

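Genes were also grouped by symbol, across and beyond the lists. Of 224 solute carriers (Slc) tested, 150 were called higher and 27 lower by limma (124 and 55 scaled), and of 31 cytochromes P450 (Cyp) 25 were higher and 2 lower (23 and 3 scaled). Of 43 Rab GTPases, which route vesicles, 34 were higher and 4 lower (24 and 6 scaled). Of 227 zinc finger proteins with a Zfp symbol, most of them DNA-binding, 51 were higher and 9 lower as deposited, but 18 and 66 when scaled, so their direction turns with the scaling. These counts stand beside 48.6% higher and 7.27% lower among all genes tested (32.4% and 24.4% scaled).

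By RNA class, matched by symbol to RefSeq, 203 long noncoding RNAs held 69 higher and 28 lower calls (41 and 62 scaled). Of 48 small nucleolar RNA entries 2 were higher and 7 lower (0 and 20 scaled). The share of genes called higher differed with the level of the gene. It was 24.2% of genes with a mean under 2 FPKM, 50.6% between 5 and 10 FPKM 70.5% between 30 and 100 FPKM and 61.5% at 100 FPKM or more as deposited, and 14%, 30%, 56.9% and 57.6% when scaled.

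Among the genes with the smallest adjusted p in limma's fit were some outside every list. Tmem139, a membrane protein, stood at 30.6, 33.97 and 32.7 FPKM in CD24- and 2.76, 2.65 and 2.24 in CD24+ libraries (log2 fold change 3.24 ± 0.18). Nlrp9b, an intestinal sensor of viral RNA, stood at 11.2, 9.24 and 12.02 against 0.473, 0.492 and 0.659 FPKM (2.93 ± 0.18). Adh4, an alcohol dehydrogenase, stood at 15.7, 14.8 and 16.4 against 1.07, 0.748 and 0.897 FPKM (3.13 ± 0.18). Lower were Lbh, a Wnt-responsive transcription cofactor (10.4, 6.7 and 7.58 against 66.2, 93.5 and 71.4 FPKM, -3.09 ± 0.22), and Nucb2, the precursor of nesfatin (7.39, 4.43 and 8.12 against 64.1, 71.5 and 64.1 FPKM, -3.18 ± 0.23). None of these had overlapping groups, and all kept their direction and call when scaled. They were picked for a small adjusted p, so this was largely set by the choice. Of all genes tested, 68.4% had groups that did not overlap.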
